A study of Mus musculus with 9 samples.

Results

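The respiratory chain genes encode the subunits of the 5 enzyme complexes of oxidative phosphorylation, and they were followed in mouse brain RNA after intracerebral hemorrhage (ICH). Genes were taken by name (Nduf, Sdh, Uqcr, Cox4 to Cox8, Atp5 and the mt- genes) with a mean level of at least 1 FPKM, a level scaled for gene length and library depth, over the 9 libraries. Of 55401 genes in the deposited table, 115 had such a name. A further 13 of these were left out because their name marks a pseudogene copy (-ps), and 4 because they lay below 1 FPKM, which left 98 members. Nuclear genes made up 85 of them (39 of complex I, 4 of complex II, 8 of complex III, 17 of complex IV and 17 of complex V), and the mitochondrial genome encodes the other 13 (7, 0, 1, 3 and 2). The 4 genes below the threshold were Cox8c at 0, Cox7b2 at 0.483, Ndufa11b at 0.0104 and a second identifier of Atp5o at 0 FPKM, and the first above it were Cox8b at 2.04 and Cox6b2 at 2.60 FPKM. Of the members, 3 are annotated as processed pseudogenes (Cox6c2, Ndufb4c and Ndufs6b). Among the genes left out for -ps, Ndufb1-ps at 36.1 FPKM and Cox5b-ps at 60.2 FPKM carry a protein-coding annotation.

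All mice were labelled wildtype, and the paper describes adult male C57BL animals. The sham group (3 libraries, day 3) had a needle inserted without blood, the ICH group (3 libraries, day 3) had autologous whole blood injected into the right basal ganglia and was given the vehicle of Laminaria, and the third group (3 libraries) was treated with Laminaria after ICH. The labels give day 4, 5 and 6 for Laminaria replicates 1, 2 and 3, so treatment and day cannot be told apart in that group. No source states that a library is a single mouse, and the p-values therefore cover the spread of libraries, which may be technical.

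Complex I (NADH dehydrogenase) and complex II (succinate dehydrogenase) feed electrons into the chain, complex III passes them to cytochrome c, and complex IV (cytochrome c oxidase) hands them to oxygen. The proton gradient that builds up drives complex V, the ATP synthase. Most subunits are encoded in the nucleus and imported, while the core subunits encoded in mitochondrial DNA are transcribed inside the organelle from long transcripts that are cut at the tRNA genes. Neurons depend strongly on this pathway for their energy.

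Each library held 51307799 to 74649716 counts, and genes of the mitochondrial chromosome took 6.01% to 7.32% of them. All 8 markers of striatal projection neurons, the main cell type of the labelled basal ganglia, were detected in every group. Their summed level was 2957 to 4633 CPM (library-scaled counts, with TMM factors) in the sham group, 1898 to 2904 after ICH and 2043 to 3618 with Laminaria. The 8 markers of microglia and macrophages summed to 248 to 407 CPM in the sham group, 679 to 1416 after ICH and 616 to 1188 with Laminaria. In such bulk RNA, fewer cells of a type and less RNA per cell cannot be told apart.

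The mitochondrially encoded members were far more abundant than the nuclear ones. The median over the 13 mt- genes was 3718 FPKM, against 54.1 over the 85 nuclear members and 4.52 over all 16518 genes of at least 0.5 FPKM. All 13 were among the 23 most abundant genes of the table. mt-Co1, the catalytic subunit of complex IV, ranked 1 at 12508 FPKM, and the lowest, mt-Atp6, the proton channel subunit a of complex V, had 1509. Among nuclear members the level ran from Cox8b at 2.04 to Cox8a at 384 FPKM, both forms of the smallest subunit of complex IV. The nuclear medians by complex were 43.1 (I), 59.7 (II), 77.7 (III), 75.9 (IV) and 51.6 FPKM (V), so the complexes overlapped widely.

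**Figure D1:**
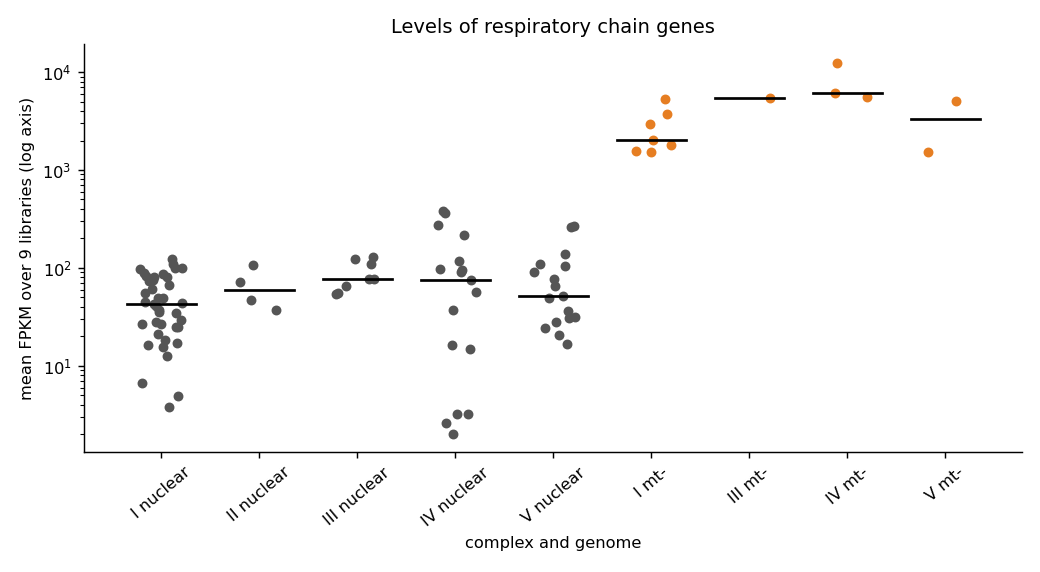
Mean FPKM over the 9 libraries (log axis) of each respiratory chain gene, by complex and by genome; points are genes (gray nuclear, orange mt-) and lines are medians. All 13 mt- genes lie at or above 1509 FPKM, and no nuclear member lies above 384.

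Genes that overlap on the mitochondrial chromosome share reads, and their separate levels are therefore uncertain. mt-Atp8 runs into mt-Atp6 over 43 bases and mt-Nd4l into mt-Nd4 over 7 bases on the same strand, while mt-Nd5 and mt-Nd6 overlap by 14 bases on opposite strands. The strand setting of the counting is not stated, and reads from either strand at mt-Nd5 and mt-Nd6 cannot be told apart. mt-Atp6 and mt-Co3, also on the same strand, share 1 base. The longer same-strand overlaps, of mt-Atp8 and mt-Nd4l, are shown with 30 bases on either side, 5′ to 3′, at chrMT:7897-7999 and chrMT:10137-10203 on the plus strand of GRCm38, from the GENCODE M21 transcripts. Capitals mark the bases that belong to both genes.
mt-Atp8 into mt-Atp6: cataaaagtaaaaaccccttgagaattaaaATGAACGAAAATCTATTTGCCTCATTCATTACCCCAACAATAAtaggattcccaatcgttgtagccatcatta
mt-Nd4l into mt-Nd4: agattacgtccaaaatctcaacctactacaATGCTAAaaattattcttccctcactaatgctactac
In both cases the capitals open with the ATG start codon of the downstream gene inside the end of the upstream one.

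The first comparison asked whether the balance between the genomes differed between the groups. Mitochondrially encoded genes held 88.4%, 90.4% and 88.1% of the summed member FPKM in sham 1, 2 and 3. The share was 90.2%, 90.6% and 89.9% after ICH and 90.5%, 90.3% and 90.6% with Laminaria. Sham 1 and 3 lay below all 6 hemorrhage libraries, but sham 2 lay among them, so the groups overlapped. As a ratio, mt- genes had 8.13 ± 1.09 times the summed FPKM of nuclear genes in the sham group, 9.22 ± 0.36 times after ICH and 9.51 ± 0.17 times with Laminaria (SD, n = 3 each). The difference in share between ICH and sham was 1.27 percentage points. It was 1.98 points without sham 2 and 0.837 without sham 3.

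**Figure D2:**
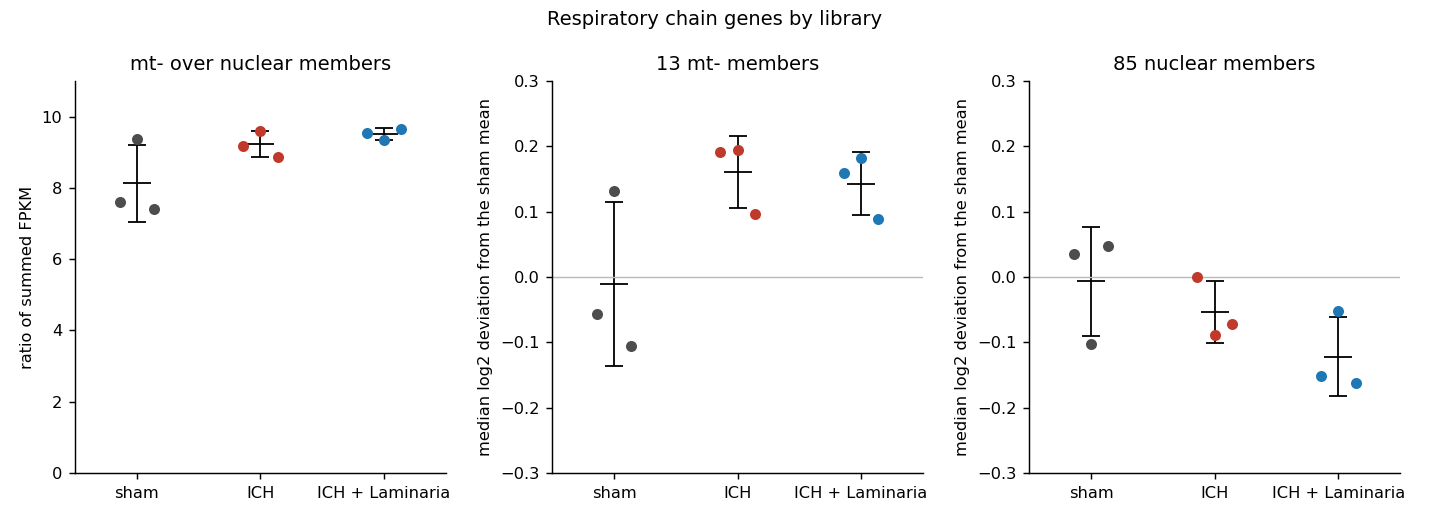
Left, ratio of the summed FPKM of mt- to nuclear members; middle and right, median log2 deviation of the 13 mt- and the 85 nuclear members from the sham mean, in scaled CPM. Points are libraries and bars the mean ± SD of 3; sham 2, the middle point of its group, lies apart from sham 1 and 3 in all 3 panels.

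Each class was also set against its own sham mean, in scaled CPM. The median mt- gene deviated from the sham mean by -0.056, 0.13 and -0.11 on the log2 scale in sham 1, 2 and 3. After ICH this median was 0.19, 0.19 and 0.097, and with Laminaria it was 0.16, 0.18 and 0.089. The median nuclear member was at 0.035, -0.10 and 0.048 in the sham group, 0.00012, -0.088 and -0.073 after ICH and -0.15, -0.053 and -0.16 with Laminaria. Sham 2 again stood with the hemorrhage libraries in both classes. Members varied little between replicates: the median coefficient of variation was 7.80% for nuclear and 10.02% for mt- members in the sham group, 5.82% and 5.94% after ICH, and 7.10% and 3.80% with Laminaria, against 11.9% to 14.1% over all genes tested. The members lie at higher levels than most genes, and this comparison was not matched for level.

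ICH against sham at day 3 asked how the hemorrhage was accompanied by differences in each gene. No respiratory chain gene passed the test, in either genome. By the quasi-likelihood test of edgeR, adjusted after Benjamini and Hochberg, 0 of 85 nuclear and 0 of 13 mt- members had an adjusted p under 0.05, beside 10.6% of the 16414 genes tested (1737). That count of calls depends on which libraries are kept. It came to 0 genes without sham 1, ICH 2 or ICH 3, 2 without sham 2, 503 without sham 3 and 2746 without ICH 1. The count at an unadjusted p under 0.05 changed less. It ran from 3696 without ICH 2 to 5387 without ICH 1, beside 4846 with all libraries. All 98 members were among the genes tested. At an unadjusted p under 0.05 there were 12 nuclear members (5 higher after ICH, 7 lower) and 1 mt- gene (higher), which is 13 of 98 beside 29.5% of all genes (17.2% higher and 12.3% lower). DESeq2, which called more genes in all 3 comparisons, called 8 nuclear members (9.41%) and 0 mt- genes, beside 21.6% of all genes. The median log2 fold change was -0.038 for nuclear and 0.16 for mt- members, against 0.012 for all genes tested. On the FPKM scale (limma on log2(FPKM + 0.1)) the nuclear median was 0.0037, where that of all genes was 0.051, so its sign depends on the scaling. Without sham 2 it was -0.10 and without sham 3 -0.015. A log2 fold change above 0 was found in 32 of 85 nuclear members and 12 of 13 mt- genes, beside 51.4% of all genes. The 95% interval of a member's log2 fold change had a median half-width of 0.24 (nuclear) and 0.28 (mt-), so differences below about this size were not detectable with 3 libraries a group. These intervals are not adjusted for the number of genes tested. Larger differences could therefore also go uncalled, as that of Ndufb10 did at -0.48.

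**Figure D3:**
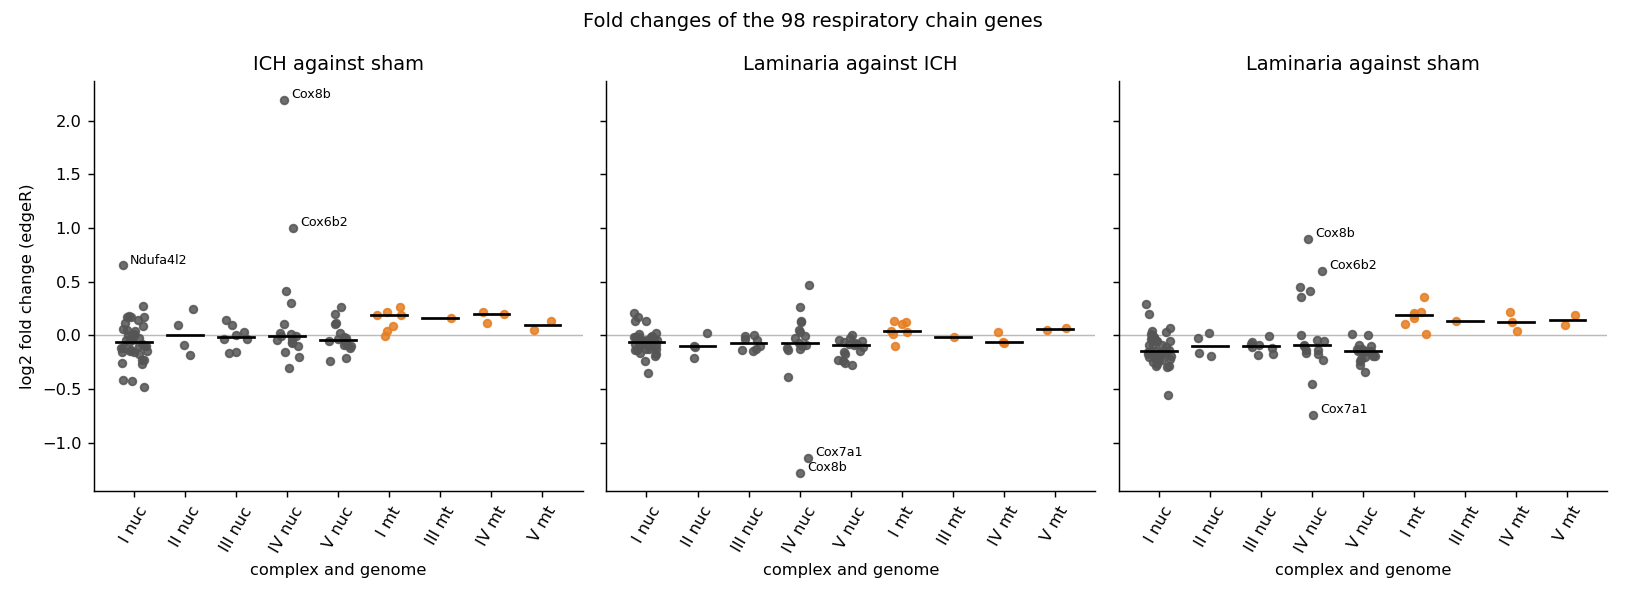
Log2 fold change of each of the 98 members in the 3 comparisons (edgeR), by complex and genome; points are genes (gray nuclear, orange mt-), lines are medians, and genes beyond 0.6 are named. In ICH against sham the medians of nuclear complexes lie near 0 (-0.065 to 0.0055) and those of mt- genes above it, and single genes of complex IV stand farthest out; no gene passed the test.

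Of the mitochondrially encoded genes of complex I, mt-Nd6 (chrMT:13552-14070, minus strand) had the highest log2 fold change. Its level was 897, 993 and 835 CPM in sham 1, 2 and 3, 1122, 1141 and 1009.6 after ICH and 1171, 1134 and 1202 with Laminaria. Every library with hemorrhage lay above every sham library. After ICH the log2 fold change came to 0.27, with a standard error of 0.10 and an edgeR adjusted p of 0.139. mt-Nd6 is the only subunit gene read from the other strand of the mitochondrial chromosome. mt-Nd1, which lies where the membrane arm meets the quinone site, had 5438, 5799 and 4639.9 CPM in the sham group, 6615, 5646 and 5738 after ICH and 5819, 6205 and 6127 with Laminaria. mt-Nd2, a proton-pumping subunit like mt-Nd4 and mt-Nd5, had 4428, 4672 and 4074, then 4662, 4356 and 4053, then 4545, 4619 and 4135 CPM in the same order of groups. ICH overlapped sham for both genes, and mt-Nd2 was the one mt- gene with a log2 fold change below 0 after ICH (-0.0061, interval -0.27 to 0.26). For mt-Nd3, which encodes a small membrane subunit, the sham values of 491, 603 and 595 CPM lay below the ICH values of 620.1, 695 and 644, and the Laminaria values were 625, 612 and 581. The level of mt-Nd4 was 4133, 4657 and 3803 CPM in the sham group, 4968, 4831 and 4509 after ICH and 4959, 4885 and 4819 with Laminaria. Sham 2 was the highest sham library for all of these genes. The same held for mt-Nd4l, which showed 577, 734 and 627 CPM, 709, 683 and 590.4 CPM and 829, 707 and 638 CPM in the sham, ICH and Laminaria groups. mt-Nd5 was at 2866, 3545 and 2617 CPM in the sham group, 3340.4, 3218 and 3011 after ICH and 3593, 3369 and 3459.7 with Laminaria, and sham 2 lay above all 3 ICH libraries.

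The mitochondrially encoded genes of complexes III to V differed between the groups by little beside their spread. mt-Cytb, the cytochrome b of complex III, had 6642, 7157 and 5854 CPM in the sham group, 7516, 7047 and 7312 after ICH and 7287, 7303 and 6974 with Laminaria. mt-Co1 had 21195, 22645 and 19745 CPM in the sham group, 23696, 22451 and 22627 after ICH and 21033, 22573 and 21905 with Laminaria, and ICH overlapped sham for both genes. mt-Co2, which receives electrons from cytochrome c, had 3730.3, 4036 and 3876 CPM in the sham libraries, all below the ICH values of 4648, 4534 and 4145 and the Laminaria values of 4276, 4685 and 4646. The sham values of mt-Co3, the third core subunit, were 4573, 5180.4 and 5266 CPM, those after ICH 5759, 6039 and 5598 and those with Laminaria 5592, 5667 and 5209. The log2 fold change after ICH was 0.20 for mt-Co2 (standard error 0.10, edgeR adjusted p = 0.256) and 0.22 for mt-Co3 (standard error 0.11, adjusted p = 0.245). In complex V, mt-Atp6 was at 969, 1142 and 1141 CPM in the sham group, 1234, 1282 and 1034 after ICH and 1332, 1238 and 1149 with Laminaria. Its overlapping neighbor mt-Atp8, a small membrane subunit, was at 1016, 1352 and 1048, 1205, 1292 and 1038 and 1212, 1302 and 1136 CPM in these groups. ICH 3 was the lowest ICH library for both, and ICH overlapped sham for both, while all Laminaria libraries of mt-Atp6 lay above all sham libraries. Over the 13 genes, 4 had every ICH library above every sham library (mt-Nd3, mt-Nd6, mt-Co2 and mt-Co3), beside 19.5% of all genes, and 0 had every ICH library below, beside 16.7%.

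**Figure D4:**
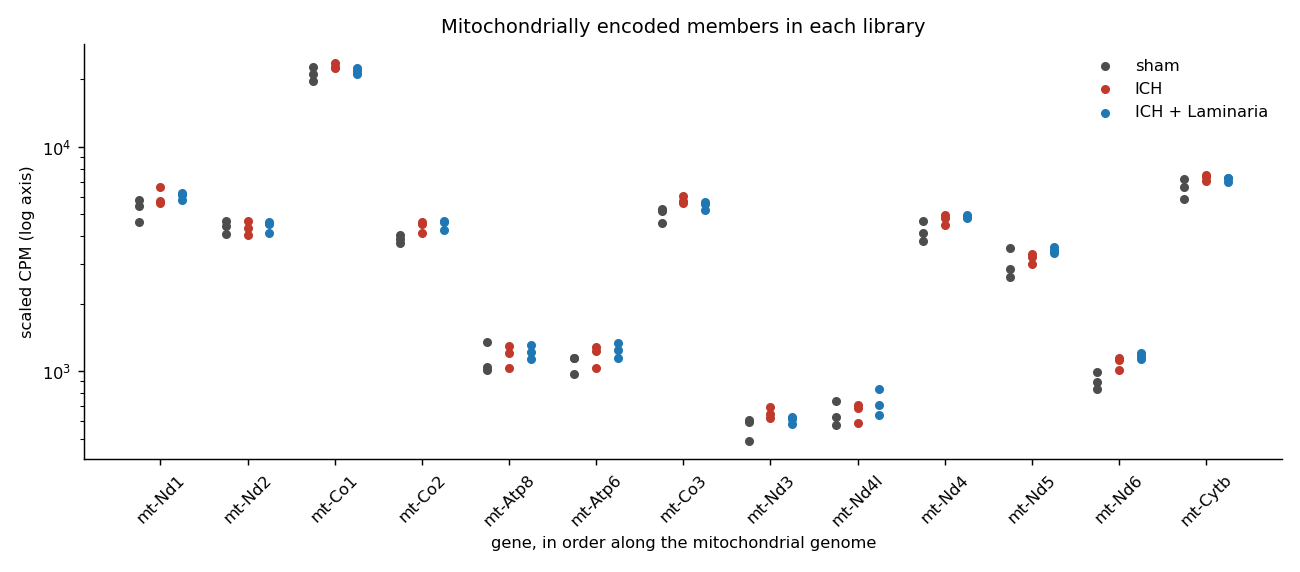
Scaled CPM (log axis) of the 13 mitochondrially encoded genes in each of the 9 libraries, in order along the mitochondrial genome; each point is a library. The groups lie close together beside the differences between genes, and only for mt-Nd3, mt-Nd6, mt-Co2 and mt-Co3 do all ICH points lie above all sham points.

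In nuclear complex I, 5 genes were lower and 2 higher after ICH at an unadjusted p under 0.05, which is 12.8% and 5.13% of its 39 genes beside 12.3% and 17.2% of all genes, and none passed the adjusted test. Ndufv1 (ENSMUSG00000037916), the flavoprotein that binds NADH, had 98.2, 96.5 and 96.7 CPM in the sham group, 83.6, 78.9 and 78.4 after ICH and 90.3, 86.5 and 85.9 with Laminaria. The 3 groups were fully apart, with ICH lowest and Laminaria between. The log2 fold change after ICH was -0.27 (standard error 0.075, interval -0.45 to -0.092, adjusted p = 0.0658). Leaving out ICH 1 gave an adjusted p of 0.0389 for Ndufv1, and DESeq2 gave 0.00592. Ndufs3, a core subunit of the matrix arm, was at 105, 97.0 and 109 CPM in the sham group, 87.2, 84.9 and 87.3 after ICH and 84.6, 93.9 and 77 with Laminaria, again with all sham libraries highest (log2 fold change after ICH -0.26, standard error 0.081, adjusted p = 0.0872). Ndufs1, the iron-sulfur subunit that follows Ndufv1 in the electron path, was at -0.23 on the log2 scale (adjusted p = 0.133) and Ndufa10, an accessory subunit, at -0.23. The lowest log2 fold change of the complex belonged to Ndufb10, an accessory subunit of the membrane arm. It had 138, 165 and 191 CPM in the sham group and 122, 104 and 128 after ICH, without overlap, and 146, 122 and 139.7 with Laminaria. This gave -0.48 on the log2 scale, with a standard error of 0.14 and an adjusted p of 0.0818. The processed pseudogenes Ndufs6b and Ndufb4c followed at -0.42 and -0.41. The highest belonged to Ndufa4l2, a relative of Ndufa4 known to be induced by low oxygen, with 4.50, 3.06 and 3.52 CPM in the sham group, 5.14, 6.08 and 6.19 after ICH and 3.24, 3.16 and 7.25 with Laminaria. The ICH libraries were all above the sham libraries, while the Laminaria group was spread widely, with replicate 3 the highest of all 9 libraries (log2 fold change after ICH 0.65, standard error 0.21, adjusted p = 0.095). Of the 39 nuclear genes of complex I, 10 had all ICH libraries below all sham libraries, 4 had them above, and the median log2 fold change was -0.065. Over all 85 nuclear members these counts were 15 (17.6%) and 8 (9.41%), beside the 16.7% and 19.5% of all genes given above.

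**Figure D5:**
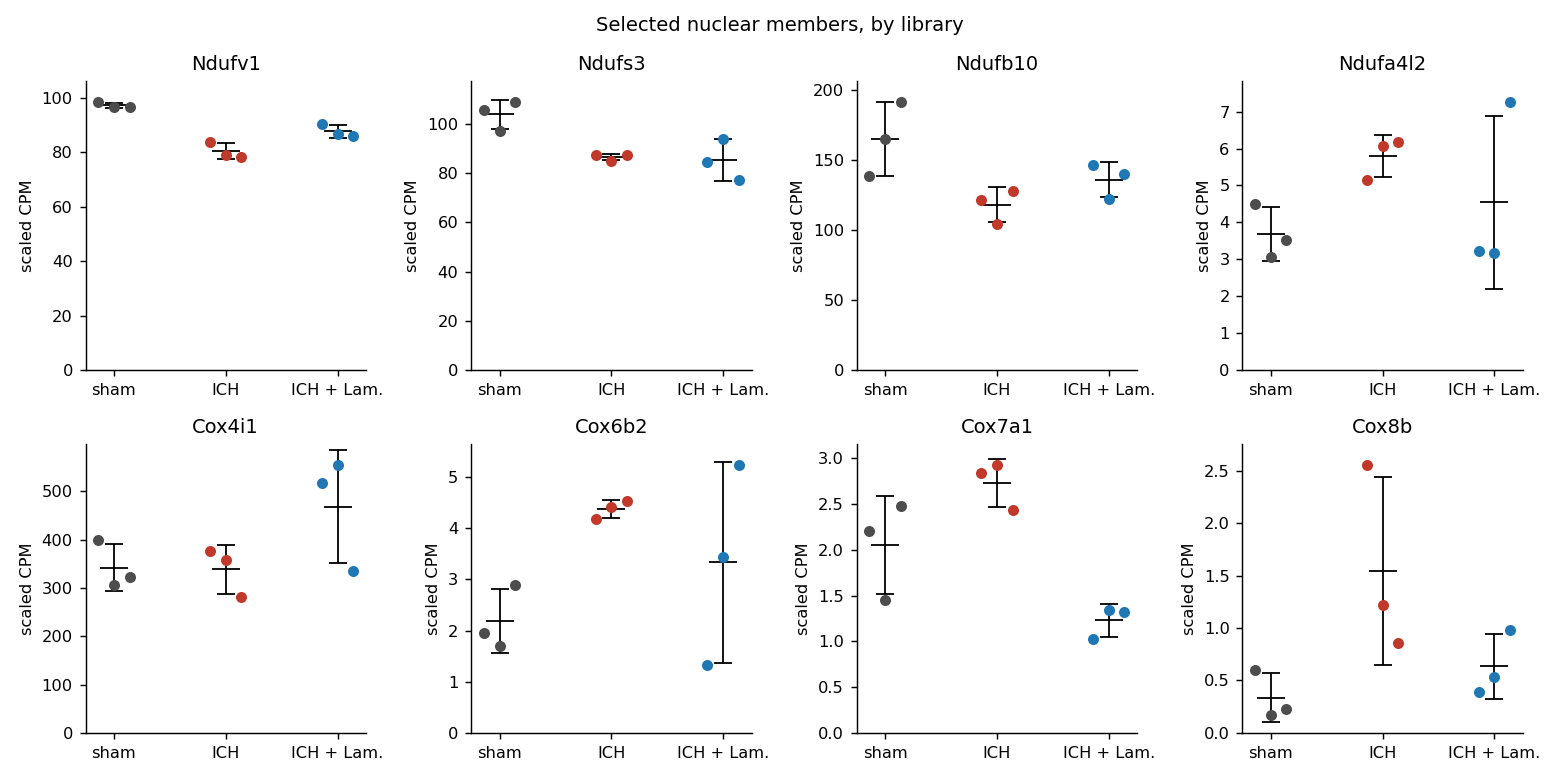
Scaled CPM of 8 nuclear members by library, chosen by their differences; points are libraries, bars the mean ± SD of 3. ICH lies below sham without overlap for Ndufv1, Ndufs3 and Ndufb10 and above it for Ndufa4l2, Cox6b2 and Cox8b, while Cox7a1 is lowest in the 3 Laminaria libraries and Cox4i1 overlaps in all groups.

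Complex II has 4 genes, all nuclear, and its subunits did not go the same way. Sdhc, a membrane anchor, was at 132, 121 and 138 CPM in the sham group, 146, 156 and 159 after ICH and 124, 139.6 and 134 with Laminaria. The ICH libraries lay above all others (log2 fold change 0.24, standard error 0.084, adjusted p = 0.114). Sdha, the flavoprotein that oxidizes succinate, had 556, 525 and 540.3 CPM in the sham group, 516, 455 and 457 after ICH and 485, 504 and 459.9 with Laminaria, with the sham libraries above all others (log2 fold change -0.18, standard error 0.093, adjusted p = 0.254). The iron-sulfur subunit Sdhb had a log2 fold change of -0.086 and the other anchor, Sdhd, one of 0.10. In complex III the range was narrow, from Uqcrc2, a core subunit, to Uqcrq, a small quinone-site subunit. Uqcrc2 had 215, 204 and 193 CPM in the sham group, 189, 183 and 174 after ICH and 181, 198 and 166 with Laminaria, a log2 fold change after ICH of -0.16 (interval -0.35 to 0.034). Uqcrq had 114, 101 and 112 CPM, 126, 114 and 120.3 CPM and 106, 109.8 and 111 CPM in the same groups, a log2 fold change of 0.15 (interval -0.068 to 0.36). All ICH libraries were above all sham libraries for Uqcrq and below them for Uqcrc2, and both intervals included 0.

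Complex IV held the largest fold changes, those of Cox8b and Cox6b2, which are tissue-specific forms at low levels. Cox8b (ENSMUSG00000025488, chr7:140898945-140900446), the heart and skeletal muscle form of subunit VIII, had 43, 10 and 15 counts in the sham group, by replicate, against 144, 91 and 54 after ICH. In CPM this was 0.601, 0.169 and 0.231 in the sham group, 2.55, 1.22 and 0.852 after ICH and 0.391, 0.532 and 0.979 with Laminaria. All ICH libraries exceeded all sham libraries, with ICH 1 the highest. It had a log2 fold change of 2.20 (standard error 0.64, interval 0.68 to 3.71, edgeR adjusted p = 0.0735). Low counts piled up, with 4 found 10444 times and 5 found 2011 times in the table, so a sequenced fragment appears to have added several counts and Cox8b rests on few fragments. The pile-up concerns the whole table and every test on counts. Cox6b2, Cox4i2, Cox7a1 and Ndufa4l2, the next lowest members, share this limit. Cox6b2, the testis form of subunit VIb, had 1.96, 1.71 and 2.90 CPM in the sham group, 4.18, 4.41 and 4.53 after ICH and 1.32, 3.44 and 5.23 with Laminaria. The ICH libraries were close together and above all sham libraries, and the Laminaria libraries spanned the whole range (log2 fold change after ICH 1.0, standard error 0.26, adjusted p = 0.0547). It was called with limma on log2(FPKM + 1) at an adjusted p of 0.0348 and with DESeq2 at 0.00562. Cox6a2, the heart and skeletal muscle form of subunit VIa, did not share the direction of Cox8b. It had 13.1, 10.8 and 16.8 CPM in the sham group, 15.0, 8.95 and 8.81 after ICH and 11.5, 12.1 and 6.27 with Laminaria, with overlap (log2 fold change after ICH -0.31, interval -0.97 to 0.36).

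The summed level of muscle markers was above the sham range in all 6 hemorrhage libraries, but it rested on some of the markers, and these were highest in other libraries than Cox8b. The summed level of 8 muscle markers, all with counts in each group, was 8.81 to 9.61 CPM in the sham group, 14.6 to 59.4 after ICH and 11.3 to 47.9 with Laminaria, and 1 of the 4 that could be tested was called higher after ICH (Tnnt3, log2 fold change 4.06, adjusted p = 0.0368). Tnnt3, a troponin of fast muscle, had 1.15, 8.83 and 1.99 CPM in ICH 1, 2 and 3 and 7.07, 0.689 and 1.60 in Laminaria 1, 2 and 3, so it was highest in ICH 2 and Laminaria 1, where Cox8b was at 1.22 and 0.391 CPM. Of the other markers that could be tested, Ckm was at 5.17 on the log2 scale (adjusted p = 0.0554), Acta1 at 1.295 (adjusted p = 0.151) and the heart troponin Tnni3 at -0.043 (adjusted p = 0.927). The heart myosin Myh6 had 2.503, 3.51 and 3.98 CPM in the sham group, 5.25, 3.47 and 2.73 after ICH and 3.81, 3.18 and 2.71 with Laminaria, with overlap. With Laminaria, 0 of 3 muscle markers were called against sham (1 at an unadjusted p under 0.05 in edgeR). The part of muscle RNA in the Cox8b values was not tested.

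The widely expressed partners of these forms were at far higher levels, and none of those given here passed the test after ICH. Cox6b1, the partner of Cox6b2, had 237, 209.5 and 249 CPM in the sham group, 244, 220.4 and 226 after ICH and 208, 209 and 207 with Laminaria (log2 fold change after ICH -0.0084, interval -0.25 to 0.23). Cox8a had 297, 236 and 293 CPM in the sham group, 289, 274 and 269 after ICH and 254, 265 and 259 with Laminaria (log2 fold change after ICH 0.012, interval -0.26 to 0.28). Cox6a1 had 334, 269 and 315 CPM, then 305, 264 and 287, then 273, 281 and 285 (interval -0.37 to 0.18). All 3 of these partners overlapped between sham and ICH. Cox4i1, the common form of subunit IV, was at 398, 306 and 322 CPM in the sham group, 377, 359 and 281 after ICH and 517, 554 and 334 with Laminaria, and Cox4i2, the form known from lung and from responses to low oxygen, at 3.44, 2.38 and 1.91, 2.57, 2.90 and 2.86 and 3.26, 2.77 and 3.92. The intervals of the log2 fold change after ICH were -0.38 to 0.36 and -0.53 to 0.74. Sham and ICH overlapped for both. Cox7a1, the heart and skeletal muscle form of subunit VIIa, had 2.21, 1.45 and 2.48 CPM in the sham group, 2.84, 2.92 and 2.43 after ICH and 1.02, 1.35 and 1.32 with Laminaria. Cox7a2, the liver form that is widely expressed, had 85.7, 80.9 and 82.4, then 93.4, 80.5 and 78.7, then 75.3, 81.5 and 75.9 CPM. The related gene Cox7a2l had 173, 105 and 108, then 170.0, 120.5 and 183, then 170.3, 175 and 172 CPM. All 3 overlapped between sham and ICH. Ndufa4, once placed in complex I and now in complex IV, is counted with complex I in all tallies here, by its name. It had 134, 125 and 137 CPM in the sham group, 125, 116 and 114 after ICH and 106, 132 and 150.0 with Laminaria, where all ICH libraries were below all sham libraries (log2 fold change -0.16, adjusted p = 0.271).

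In complex V no gene passed the test after ICH, neither the catalytic subunits nor the 3 genes of the c-ring. Atp5b, the catalytic beta subunit, had 1449, 1343 and 1415 CPM in the sham group, 1260.2, 1137 and 1168 after ICH and 1195, 1237 and 1059 with Laminaria. All sham libraries were above all others (log2 fold change after ICH -0.23, standard error 0.094, adjusted p = 0.153). Its partner Atp5a1, the alpha subunit, was at -0.21 on the log2 scale (adjusted p = 0.167). The genes Atp5g1, Atp5g2 and Atp5g3 encode the same mature c subunit. Atp5g2 had 88.8, 77.1 and 97.97 CPM in the sham group, 94.8, 109 and 114 after ICH and 86.9, 84.4 and 96.4 with Laminaria, the highest log2 fold change of the complex after ICH (0.27, interval -0.011 to 0.55, adjusted p = 0.184). Atp5g1 was at 119.5, 109 and 133 CPM, 122, 125 and 103 CPM and 93.1, 127 and 112 CPM in these groups, and Atp5g3 at 215, 196 and 217, 197, 188 and 193 and 182, 186 and 166. Their log2 fold changes after ICH were -0.042 (interval -0.33 to 0.24) and -0.11 (interval -0.31 to 0.079), and all 3 intervals overlapped.

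The promoters of 3 members are shown because Ndufs3, Atp5g2 and Cox8b stood for lower, slightly higher and much higher mean values after ICH. Each run covers 250 bases before to 50 after the gene start, from RefSeq on GRCm38.p6, minus strand, 5′ to 3′: Ndufs3 at chr2:90904672-90904971, Atp5g2 at chr15:102670998-102671297 and Cox8b at chr7:140900397-140900696. Capitals mark a match, on either strand. The letters are CCGGAAGT for ETS (Ndufs3), GCGCATGC for NRF1 (Atp5g2, where matches on both strands overlap) or TATAAA for the TATA box (Cox8b). The matches of Cox8b and Ndufs3 lie within the last 50 bases of the run, after the gene start used here. Whether the TATAAA of Cox8b acts as a TATA box was not tested.
Ndufs3: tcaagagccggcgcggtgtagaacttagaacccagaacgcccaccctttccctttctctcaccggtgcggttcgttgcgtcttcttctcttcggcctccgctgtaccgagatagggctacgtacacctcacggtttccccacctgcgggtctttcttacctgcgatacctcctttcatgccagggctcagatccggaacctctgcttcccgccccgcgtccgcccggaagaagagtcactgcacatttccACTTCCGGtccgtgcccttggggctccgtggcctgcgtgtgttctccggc
Atp5g2: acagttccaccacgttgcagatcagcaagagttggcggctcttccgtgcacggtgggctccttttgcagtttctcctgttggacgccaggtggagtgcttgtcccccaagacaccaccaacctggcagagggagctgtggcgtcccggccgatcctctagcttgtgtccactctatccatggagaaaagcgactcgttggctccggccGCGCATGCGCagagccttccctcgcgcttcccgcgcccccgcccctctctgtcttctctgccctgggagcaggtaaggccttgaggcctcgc
Cox8b: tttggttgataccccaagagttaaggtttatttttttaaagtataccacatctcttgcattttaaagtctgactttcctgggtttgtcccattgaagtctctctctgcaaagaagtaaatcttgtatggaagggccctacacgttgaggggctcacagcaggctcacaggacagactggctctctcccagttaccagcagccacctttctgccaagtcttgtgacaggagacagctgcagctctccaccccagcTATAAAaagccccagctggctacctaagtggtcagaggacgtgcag
NRF1 and ETS factors are known activators of nuclear respiratory genes, and a TATA box is common in promoters of tissue-specific genes. Of the nuclear members, 67 had a promoter in the table. The NRF1 letters were found in 10 of them (14.9%) and in 3.05% of all 27025 promoters, the ETS letters in 5 (7.46%) and 4.31%, the YY1 letters AAGATGGC in 10 (14.9%) and 3.19%, and TATAAA in 7 (10.4%) and 15.7%. Both strands were searched, and a match is a description of these letters only.

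Laminaria against ICH asked whether the treatment went with other levels. Again no respiratory chain gene passed the test, and the clearest difference was a lower level of Cox7a1. With edgeR, 0 of 85 nuclear and 0 of 13 mt- members were called, beside 0.018% of the 16654 genes tested. At an unadjusted p under 0.05 there were 4 nuclear members, all lower (Cox7a1, Atp5e, Atp5g2 and Sdhc), beside 1.65% of all genes, and 0 mt- genes. In either direction and over all genes the share was 3.36%, with 1.71% higher. DESeq2 called 1 nuclear member (Cox7a1) and 0 mt- genes, beside 0.288%. Cox7a1 (ENSMUSG00000074218, chr7:30184144-30186078) had 160, 218 and 154 counts in ICH 1, 2 and 3 and 55, 86 and 70 in Laminaria 1, 2 and 3. Its CPM values given above did not overlap, and all 3 Laminaria libraries were also below all sham libraries. This gave a log2 fold change of -1.14 (standard error 0.24, interval -1.72 to -0.57, edgeR adjusted p = 0.951, DESeq2 adjusted p = 0.00849). Cox8b had the lowest fitted value, -1.28 (interval -2.59 to 0.030, edgeR adjusted p = 0.951), with overlapping libraries. Cox4i1 had the highest, 0.47 (interval -0.051 to 0.998), with Laminaria 1 and 2 above every other library and Laminaria 3 inside the range of the others.

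As a class, nuclear members sat slightly lower with Laminaria. The median log2 fold change against ICH was -0.075 for nuclear and 0.036 for mt- members, beside -0.0016 for all genes tested, and 15 of 85 nuclear and 9 of 13 mt- members were above 0, beside 49.7% of all genes. For 14 nuclear members all Laminaria libraries were below all ICH libraries, beside 4.79% of all genes, and for 1 they were above, beside 4.23%. That member was Ndufv1, and mt-Nd5 was the one mt- gene with all Laminaria libraries above ICH. Without ICH 1, 34 of 85 nuclear members were above 0 and the nuclear median was -0.025, and without ICH 3 the mt- median was -0.019. The size of the nuclear median and the sign of the mt- median thus depended on single libraries. The nuclear median stayed below 0 whichever library was left out. The shift was not particular to nuclear members. The 78 mitochondrial ribosomal proteins also had a median of -0.075, and 12 had all Laminaria libraries below all ICH libraries. Medians of the other lists of mitochondrial functions ran from -0.11 (complex I assembly) to 0.030 (mitochondrial DNA upkeep).

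Against the sham group, which is shared with the first comparison, the Laminaria libraries gave the same counts of calls: 0 of 85 nuclear and 0 of 13 mt- members with edgeR, beside 0.0183% of 16405 genes. At an unadjusted p under 0.05 there were 9 nuclear members, all lower, beside 6.75% of all genes, and 1 mt- gene, higher, beside 11.2% (17.9% in either direction). DESeq2 called 0 nuclear members and 1 mt- gene, mt-Nd6 (adjusted p = 0.0203), beside 8% of all genes. The log2 fold change of mt-Nd6 was 0.36 (standard error 0.10, interval 0.13 to 0.59, edgeR adjusted p = 0.146). The median log2 fold change was -0.13 for nuclear and 0.16 for mt- members, beside 0.0068 for all genes, and 15 of 85 nuclear and 13 of 13 mt- members were above 0, beside 50.9% of all genes. All Laminaria libraries lay below all sham libraries for 23 nuclear members, beside 12.6% of all genes, and above them for 5 mt- genes (mt-Nd1, mt-Nd4, mt-Nd6, mt-Co2 and mt-Atp6), beside 14.9%. Ndufs3 (-0.29), Ndufs1 (-0.29) and Atp5b (-0.27), which had all ICH libraries below all sham libraries, were also among the 9 nuclear members here.

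Genes that serve the same pathway, from lists of mitochondrial functions, gave few calls after ICH. Over all genes tested, 10.6% were called and 29.5% had an unadjusted p under 0.05 in edgeR. Of 17 genes of the tricarboxylic acid cycle, which supplies the chain with NADH and succinate, 0 were called and the median log2 fold change was -0.16 (5 had an unadjusted p under 0.05 in edgeR), with Idh2 at 0.52 and Pdhb at -0.24 as examples. Of 14 assembly factors of complex I and 19 of complex IV, 0 were called, with medians of -0.089 and -0.015 (1 and 2 at an unadjusted p under 0.05). Of 14 electron carriers, 1 was called higher: Etfa, which passes electrons from fatty acid oxidation to the chain, at 0.46 (standard error 0.094, adjusted p = 0.0327). In that list 2 genes had an unadjusted p under 0.05, and the median was 0.036. Of 9 regulators, 1 was called lower: Ppargc1a, the coactivator PGC-1alpha known to drive mitochondrial biogenesis, at -0.55 (standard error 0.11, adjusted p = 0.0303), and its relative Ppargc1b was at -0.73 (adjusted p = 0.118). Among the 9 regulators, 4 had an unadjusted p under 0.05 in edgeR, and the median was -0.18. Ppargc1a had 47.6, 43.6 and 37.9 CPM in the sham group and 28.3, 30.5 and 29.1 after ICH, without overlap, and 43.8, 41.9 and 38.0 with Laminaria. Of 78 mitochondrial ribosomal proteins 1 was called higher, Mrpl52 at 0.62 (adjusted p = 0.0351), with a median of 0.016 and 6 at an unadjusted p under 0.05. For mitochondrial DNA upkeep 0 of 13 genes and for the outer membrane 0 of 10 were called (medians -0.033 and -0.075, with 1 and 3 at an unadjusted p under 0.05). In both Laminaria comparisons 0 genes of these lists were called, beside 0.018% (against ICH) and 0.0183% (against sham) of all genes. These calls after ICH, and those of cell type markers, depend on which libraries are kept, as the background does. At the adjusted threshold, 0 genes of the table were called without sham 1, ICH 2 or ICH 3 and 2 without sham 2. At an unadjusted p under 0.05 there were still 4127, 3696 and 3752 genes without sham 1, ICH 2 or ICH 3, beside 4846 with all libraries. All 8 markers of microglia and macrophages had every ICH library above every sham library.

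The lists of cell type markers differed among themselves in how many of their genes passed the test after ICH. All 8 markers of microglia and macrophages were called higher (median log2 fold change 2.33), 1 of 8 of neurons was called lower (median -0.50) and 1 of 8 of striatal projection neurons (median -0.77). Among all genes tested, 10.6% were called. An unadjusted p under 0.05 in edgeR was found for 6 of 8 neuron and 7 of 8 striatal markers, all lower, beside 29.5% of all genes. Every ICH library lay below every sham library for 6 and 5 of them, beside 16.7% of all genes. Of 6 astrocyte markers 3 were called higher (median 0.62) and of 5 endothelial markers 2 (median 0.72), with 4 and 4 at an unadjusted p under 0.05. For oligodendrocytes 0 of 6 were called in either direction (median -0.093, 0 at an unadjusted p under 0.05 in edgeR). Of 4 red blood cell markers that could be tested 0 were called (median 2.32), though all 4 had every ICH library above every sham library. The neuron markers summed to 4827 to 5315 CPM in the sham group, 3153 to 4392 after ICH and 3128 to 4468 with Laminaria. The part of these cell types in the nuclear and mt- values was not tested.

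Near-identical copies make some member values uncertain, since reads can be split between gene and copy. Ndufa12 shares most: its processed pseudogene took 32.4% to 59.6% of their joint counts over the libraries. ICH 1, with 74.8, 44.3 and 43.8 CPM for Ndufa12 in ICH 1, 2 and 3 against 49.3, 50.1 and 45.1 in the sham group, stood apart, and the log2 fold change after ICH of 0.18 became a log2 ratio of -0.045 when gene and copy were summed. For Cox5b the copy took 10.6% to 14.5% of counts, and the ratio was -0.15 either way. For the other 5 members with a counted copy its share was at most 5.14%. Only copies named after a member with -ps, at 1 FPKM or more, were examined, so copies under other names are not covered.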

How the data were processed

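RNA of 9 mouse brain libraries was sequenced, 3 in each of 3 groups, and groups were taken from the labels. The authors deposited 1 table with whole-number counts and FPKM values per gene and library, an FPKM of 0.0001 standing for a count of 0 (set to 0). The submitters' processing notes name StringTie 1.3.4, HISAT2 2.0.4, FastQC 0.10.1 and cutadapt 1.9, and a rat genome, while the identifiers are mouse and start and end of 85 of the 98 members equal GENCODE M21 on GRCm38. Of strand, counting and annotation release nothing is stated. Counts were compared with edgeR 4.0.16 (TMM, quasi-likelihood test, R 4.3.3) in the 6 libraries of each comparison, for genes averaging 0.5 FPKM or more, with Benjamini-Hochberg adjustment over all of them and a threshold of 0.05. Standard errors were taken from the F statistic. Alternatives used limma 3.58.1 on log2(FPKM + 1) or log2(FPKM + 0.1), DESeq2 1.42.0, other scalings and filters, a replicate block, all 9 libraries and each library left out. The tests were also run on simulated data, with results not given here. Levels between genes are FPKM, and levels between libraries are CPM after TMM scaling. Members and lists were chosen with earlier results of these data known. The genes named with values are all 13 mt- genes, the highest and lowest log2 fold change after ICH in each nuclear complex and 6 sets of related forms. Ndufv1, Ndufs3, Cox6b2 and Atp5b were added after their values were seen. Intervals cover the spread between libraries only.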

Additional observations from a re-analysis of the deposited data

How the results depend on the processing

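No member was called in any of the 3 comparisons with edgeR and the settings of the report, and other tools or scalings called few. For ICH against sham, 1 nuclear member was called with DESeq2's size factors in edgeR (Ndufv1), 8 with DESeq2, 1 with limma at either pseudocount (Cox6b2) and 1 with all 9 libraries in 1 fit (Ndufv1). Of all 16414 genes tested, 1831 were called with DESeq2's size factors and 3547 with DESeq2. The count was 1345 with limma on log2(FPKM + 1), 1061 on log2(FPKM + 0.1) and 1361 with all 9 libraries in 1 fit. Leaving out each library gave 0 to 2 nuclear calls, the 2 (Ndufs1 and Ndufv1) without ICH 1, where 2746 genes of the table were called. Without sham 1, ICH 2 or ICH 3 the test called 0 genes of the whole table and without sham 2 it called 2, so the 0 members there say nothing about the members. For Laminaria against ICH, DESeq2 called 1 nuclear member (Cox7a1), beside 48 of all 16654 genes tested. For Laminaria against sham it called 1 mt- gene (mt-Nd6), beside 1312 of 16405. The cause of these differences was not tested. Each member named here kept its direction in that comparison under every alternative. The median of the nuclear members after ICH ranged from -0.10 without sham 2 to 0.0037 with limma on log2(FPKM + 0.1), and that of the mt- genes from 0.097 to 0.21. Taking out the 3 processed pseudogenes, a choice made after seeing the data, left the nuclear median at -0.037 and 0 calls.

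The replicate number as a block in edgeR gave 1 nuclear call for ICH against sham (Cox8b, adjusted p = 0.0468), beside 839 of all 16414 genes tested. It gave no call of a member in the other comparisons, beside 0 genes of the table against ICH and 302 against sham. Replicate numbers are not said to pair the libraries. Deviations of same-numbered libraries correlated at -0.25 to 0.14, and those of differently numbered ones at -0.30 to 0.30. No pairing was seen in these values, but with 3 libraries a group they cannot exclude it. Precision is limited by 3 libraries a group, and Cox8b by its few counts.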
